A study of Oryza sativa with 18 samples.

Results

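The genes described here are those that crown root tips of rice induced upon JA treatment in WT plants and in the oscoi1ab line. In the oscoi2 line they kept at most a small share of the WT response. JA is jasmonic acid, a stress hormone. The response of a gene was taken in each line as log2 of the mean level after JA over the mean level under mock, with 0.5 added to both, where a level is in CPM, the count scaled by the library total. A gene was kept when its WT mock level was at least 0.5 CPM, its response was at least 1.5 in WT and in oscoi1ab plants, and its response in oscoi2 plants was at most 0.2 times that in WT plants. Of the 64687 genes listed, 85 met these limits, and 747 met them when the limit on oscoi2 plants was left out, so the 85 members were 11.38% of the genes that both other lines induced. All 18 libraries entered this choice. The levels, responses and counts of called genes below thus describe the members, and no p-value is given for them.

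All plants were of the japonica cultivar Kitaake. The groups were WT plants, the line oscoi1ab, with OsCOI1a and OsCOI1b edited by CRISPR/Cas9, and the line oscoi2 with OsCOI2 edited. Each genotype was represented by 1 homozygous line, so a line and its edit cannot be told apart. Plants aged 6 days were placed in liquid medium with 5 µM JA or with the solvent DMSO (mock), and root tips of about 1 cm from 20 to 24 plants were pooled per sample after 6 h. Each line and treatment had 3 samples from independent biological replicates.

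In plants the bioactive conjugate of JA is bound by an F-box protein, COI, together with a JAZ repressor. The JAZ protein is then degraded, and transcription factors that it had held back, such as MYC2, act on their targets. Rice carries the receptor genes OsCOI1a, OsCOI1b and OsCOI2. Its JA-induced genes include those for diterpene phytoalexins, antimicrobial terpenoids made from geranylgeranyl diphosphate, and for phenylpropanoids, which are made from phenylalanine.

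The receptor edits define the contrast by which the members were chosen, so the guides that made them are given first. They are written 5′ to 3′ in lower case, and the capitals mark the protospacer-adjacent motif beside the target.
oscoi2 guide 1: ttcgacaattgcgcacaaggNGG
oscoi2 guide 2: atattacaagactttgccggNGG
oscoi1a guide: tgctggaggagcattctacgNGG
oscoi1b guide: ccacatgaccgaactcacagNGG

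Transcripts of the edited genes were counted in every library. OsCOI2 lay between 21.5 and 28.2 CPM in the 6 oscoi2 libraries and between 34.3 and 58.3 CPM in the other 12. OsCOI1a lay between 7.41 and 28.0 CPM in the oscoi1ab libraries and at 70.1 CPM or more in all others. OsCOI1b lay between 116.5 and 133.9 CPM in oscoi1ab plants and between 137.3 and 159.0 CPM in WT plants under mock, but its lowest mock range was that of oscoi2 plants, 91.9 to 111.2 CPM. After JA the ranges of WT and oscoi1ab plants overlapped. Library totals were 99657931 to 113672521 counts. All 7 root tip markers were detected in every library. Their summed level was 3066 to 3407 CPM in WT mock and 1815 to 2513 CPM in WT JA. It was 3326 to 3990 CPM in oscoi1ab mock and 2020 to 2095 CPM in oscoi1ab JA. In oscoi2 plants it was 2480 to 2661 CPM in mock and 2135 to 2928 CPM in JA. That sum was mostly Lsi1 and Lsi2, silicon transporter genes with medians of 1570 and 1205 CPM over the 18 libraries, while the medians of the other 5 were 2.97 to 46.5 CPM. One of these, the root meristem gene OsPLT1, was the only marker called after JA in any line, higher in oscoi2 plants (log2FC 1.33 ± 0.18 SE, edgeR FDR 9.02e-05). The 41 genes of a photosynthesis list, which mark green tissue, summed to 969 to 2450 CPM in WT mock, 120 to 236 CPM in WT JA, 373 to 951 CPM in oscoi2 mock and 308 to 691 CPM in oscoi2 JA. Their part in the values of the members was not tested. In pooled tips, fewer cells of a type and less RNA per cell cannot be told apart.

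The members responded strongly in both lines with an intact OsCOI2. The median response was 2.40 in WT plants (range 1.51 to 5.57) and 2.15 in oscoi1ab plants (1.51 to 5.76), against 0.22 in oscoi2 plants (-0.74 to 0.86). On the same scale the medians over the 30907 genes with a count sum of at least 180 were -0.31, -0.30 and -0.13. In the edgeR fit, which scales by TMM and does not add 0.5 CPM, those medians were -0.05, -0.03 and -0.01. The gap between the scales was larger for the members, whose edgeR medians were 3.07, 2.58 and 0.39. It holds both the scaling and the added 0.5 CPM. In oscoi2 plants 64 members had a response above 0, 20 below 0 and 1 at exactly 0. The limit is relative to WT plants, so strongly induced members could still rise. On the TMM scale the log2FC in oscoi2 plants passed 1 for OsDPF (1.16 ± 0.87 SE), OsDXS3 (1.08 ± 0.86), OsCYP76M7 (1.08 ± 0.95) and OsJAZ9 (1.03 ± 0.48).

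**Figure D1:**
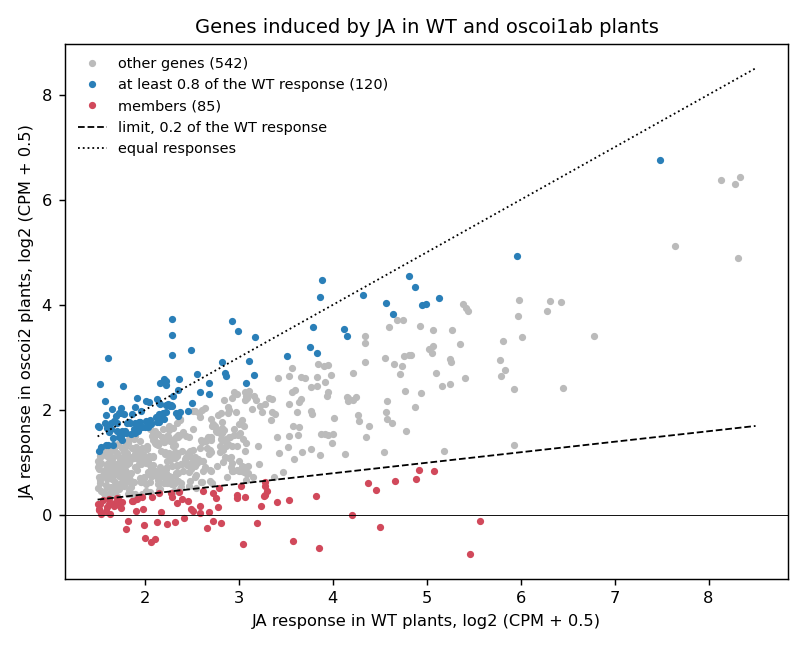
Response to JA in oscoi2 plants (y axis) against WT plants (x axis), both as log2 of mean CPM + 0.5 after JA over mock, for the 747 genes that met the limits on WT and oscoi1ab plants. The 85 members (red) lie under the dashed limit of 0.2 times the WT response, 120 genes (blue) kept at least 0.8 of it, and the 542 others (grey) fill the space between without a gap.

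The loss was one end of a continuum. Of the 747 genes, 85 kept up to 0.2 of the WT response in oscoi2 plants, 157 kept over 0.2 to 0.4, 203 over 0.4 to 0.6, 182 over 0.6 to 0.8 and 120 kept more. Genes just inside the limit were LOC_Os07g36570, a receptor-like kinase gene with a ratio of 0.1995, and LOC_Os12g02150 with 0.1953. Just outside it lay OsMCS with 0.2004 and OsGLYI1 with 0.2015. The limit on the WT response passed between OsSTA81 (1.51) and LOC_Os02g46100 (1.49), and that on the oscoi1ab response between OsSTA81 (1.51) and LOC_Os05g10840 (1.46). The WT mock minimum kept OsPAO3, a polyamine oxidase gene, at 0.517 CPM and left out IGPS at 0.483 CPM, whose response in oscoi2 plants was 0.22.

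Counted with edgeR's quasi-likelihood test over all 30907 genes (FDR under 0.01 and log2FC of at least 1), 80 members were called higher after JA in WT plants, where 7.48% of all genes tested were, and 76 in oscoi1ab plants, where 7.48% were. In oscoi2 plants 0 members were called and 4.46% of all genes were, and DESeq2 called 0 members and 6.21% of all genes. At an unadjusted p under 0.05 there were 15 members, where 30.0% of all genes were. That count was 9, 6 and 24 without oscoi2 mock replicates 1, 2 and 3 and 8 without the first oscoi2 JA library. After JA, 59 members were called lower in oscoi2 than in WT plants, against 2.22% of all genes, and 0 members differed between oscoi1ab and WT plants, against 0.162%. At an unadjusted p under 0.05 there was 1 (1 to 3 without single libraries), against 5.60%, and DESeq2 called 0, against 0.528%. The count of 59 fell to 37 without the third WT JA library and to 37 without the third oscoi2 JA library. The JA response was called smaller in oscoi2 than in WT plants for 48 members, against 1.63%. For oscoi1ab against WT plants that interaction was called for 0 members and 0% of all genes. At an unadjusted p under 0.05 there was 1 member (0 to 4 without single libraries), against 2.92%, and DESeq2 called 0, against 0.0681%. The same libraries chose the members, so nothing is read from these counts.

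The 5 members not called in WT plants were OsCPS4, OsABCG23, OsCYP701A8, OsLOX2 and LOC_Os06g37224, with standard errors of the log2FC between 1.12 and 1.45. Libraries of WT JA lay wholly above those of WT mock for 84 members, LOC_Os06g37224 being the exception, where 13.0% of all genes did so. In oscoi1ab plants all 85 did so, against 13.2%. In oscoi2 plants JA lay above mock for 3 members, OsGELP63, OsGELP61 and OsGGPS1, and below it for 1, OsFWL7, where 10.1% and 25.8% of all genes were so ordered.

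Summed over the 85 members, the level was 1212, 1577 and 1259 CPM in WT mock and 5472, 6545 and 8296 CPM in WT JA. The oscoi1ab mock libraries had 1134, 1444 and 1546 CPM and the oscoi1ab JA libraries 7158, 6057 and 6255 CPM. In the oscoi2 line the sums were 1814, 1805 and 2313 CPM without JA and 2326, 2166 and 2179 CPM with it. The oscoi2 libraries of both treatments thus lay above all mock libraries of the other lines and far below their JA libraries. How far the members shifted together between replicates differed among groups. Their median deviation from the group mean on the log2 scale ran from -0.31 to 0.37 in WT JA, from -0.24 to 0.35 in WT mock, from -0.44 to 0.31 in oscoi1ab mock and from -0.14 to 0.29 in oscoi2 mock. It stayed between -0.04 and 0.08 in oscoi1ab JA and between -0.03 and 0.03 in oscoi2 JA, where that of all genes was between -0.04 and 0.03 over the 18 libraries.

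**Figure D2:**
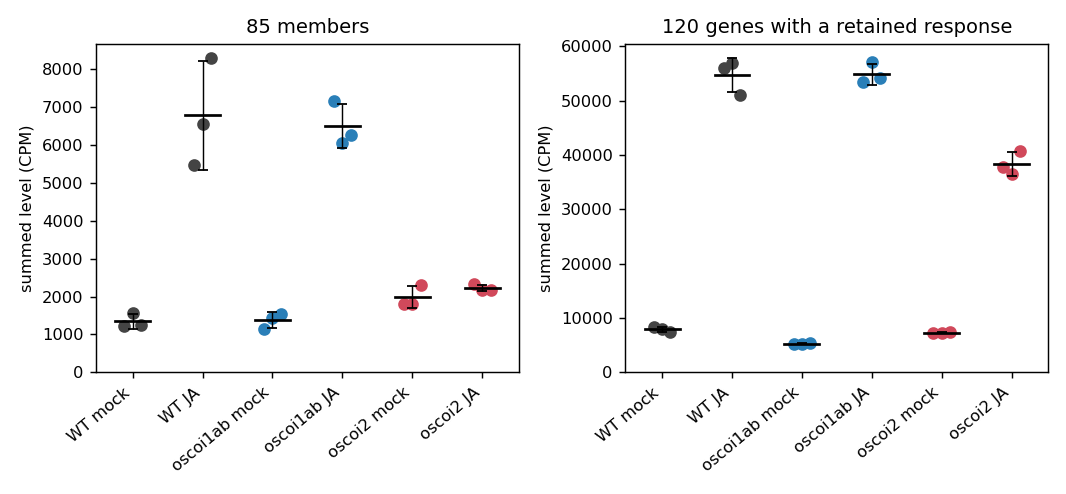
Summed level (CPM, linear axis from 0) of the 85 members (left) and of the 120 genes that kept at least 0.8 of the WT response in oscoi2 plants (right) in each of the 18 libraries. Points are libraries, horizontal lines group means and bars 1 SD (n = 3). The members stay between 1805 and 2326 CPM in oscoi2 plants with or without JA.

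Precursor and diterpene phytoalexin genes gave 7 of the 85 members. OsDXS3 encodes an enzyme of the first step of the plastid MEP pathway, which makes isoprenoid precursors. It was at 1.15, 11 and 3.05 CPM in WT mock and at 80.7, 237.3 and 243.1 CPM in WT JA, a response of 5.08. The oscoi2 libraries were at 0.42, 6.00 and 4.55 CPM in mock and at 3.03, 13.6 and 4.26 CPM in JA, a response of 0.84. All oscoi2 JA libraries lay below all WT JA libraries by more than 5 times, and they overlapped the WT mock range. OsGGPS1, a geranylgeranyl diphosphate synthase gene that supplies the diterpene precursor, was at 21.9, 36.8 and 27.4 CPM in WT mock and at 139.4, 250.9 and 323.5 CPM in WT JA. For oscoi2 plants the levels were 22.3, 30.0 and 33.4 CPM in mock and 40.7, 51.3 and 35.8 CPM in JA. It was 1 of the 3 members whose oscoi2 JA libraries all exceeded the mock ones, though the response was 0.57 against 3.03 in WT plants.

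OsCPS4 encodes the syn-copalyl diphosphate synthase that starts the branch to momilactones. It was at 0.40, 22.2 and 5.86 CPM in WT mock and at 85.1, 251.7 and 323.2 CPM in WT JA. In the oscoi2 line the values were 0, 23.3 and 15.5 CPM (mock) and 4.87, 42.1 and 7.85 CPM (JA), so the treatments overlapped and the second JA library was the highest. In oscoi1ab plants JA brought it to 339.6, 150.6 and 245.4 CPM from 3.92, 12.9 and 17.0 CPM. OsCYP99A2, a cytochrome P450 gene of the momilactone cluster on chromosome 4, was at 0, 2.80 and 0.59 CPM in WT mock and at 19.9, 30.7 and 59.2 CPM in WT JA. It reached 89.4, 29.5 and 45.7 CPM in oscoi1ab JA, but stayed at 0.17, 4.12 and 0.64 CPM in oscoi2 JA, where the mock libraries were at 0 to 3.53 CPM and 1 JA library thus lay above them. The response was 4.51 in WT and -0.22 in oscoi2 plants.

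The other P450 members on this list were OsCYP76M7 and OsCYP701A8. OsCYP76M7, from the phytoalexin cluster on chromosome 2, was at 14.6, 39.5 and 43.4 CPM in WT JA and at 1.80, 2.34 and 1.04 CPM in oscoi2 JA, against 0 to 1.54 CPM in WT mock. OsCYP701A8 encodes an enzyme related to ent-kaurene oxidase and was at 5.49, 10.5 and 16.8 CPM in WT JA. It was at 0.07, 1.94 and 0.22 CPM in oscoi2 JA and at 0, 1.75 and 0.90 CPM in oscoi2 mock, which overlap. The oscoi2 responses of these genes were 0.65 and -0.15. Not all listed P450 genes had such values, since OsCYP99A3 had responses of 3.38 in WT and 0.74 in oscoi2 plants and OsCYP71Z7 was not induced in WT plants (-0.50).

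OsDPF, a bHLH gene whose product activates diterpenoid phytoalexin genes in rice, had the highest oscoi2 response of all members. It was at 0.96, 4.82 and 1.01 CPM in WT mock and at 51.7, 85.7 and 111.5 CPM in WT JA, a response of 4.92. oscoi2 mock was at 0, 2.85 and 3.21 CPM and oscoi2 JA at 3.6, 5.66 and 2.93 CPM, a response of 0.86. The second oscoi2 JA library lay above the WT mock range, and the others lay within it. Whether OsDPF had a part in the values of the enzyme genes was not tested.

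The 7 genes together summed to 24.4, 81.1 and 39.1 CPM in WT mock and to 22.7, 69.3 and 61.0 CPM in oscoi2 mock. After JA they summed to 397, 906 and 1121 CPM in WT, to 992, 581 and 813 CPM in oscoi1ab and to 54.2, 121.1 and 52.7 CPM in oscoi2 plants. The lowest WT JA sum was more than 3 times the highest oscoi2 JA sum. Within mock groups these genes varied widely, and the first library was the lowest in each line.

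The MEP and diterpene list of the study, from which these 7 come, has 28 genes and was drawn up in part on these libraries. Of the 20 other genes tested, 13 were called higher after JA in WT plants, 13 in oscoi1ab plants and 2 in oscoi2 plants. Over all genes 7.48%, 7.48% and 2.99% were called higher. The 2 were OsHDS, an enzyme gene of the MEP pathway (log2FC 1.11 ± 0.27 SE, edgeR FDR 0.00938), and OsWRKY10 (3.66 ± 0.23, edgeR FDR 4.94e-08). Both rose in oscoi2 plants where no member was called. The response was called smaller in oscoi2 than in WT plants for 4 of the 20, OsDXR, OsCMK, OsHDS and OsKSL4, against 1.63% of all genes. The differences were 2.61, 1.99, 2.03 and 6.91 on the log2 scale. With the 7 members added it was called for 5 of 27, OsGGPS1 (-2.68 ± 0.39 SE) being the only member. The other members had standard errors of 1.24 to 1.83 for this difference. After JA, OsCPS4, OsCYP99A2 and OsCYP701A8 were also not called lower in oscoi2 than in WT plants. Of the 28 genes, 6 failed the limit of 1.5 on induction. Another 9 were induced but lay under the WT mock minimum, among them OsCPS2 with responses of 3.85 in WT and 0.18 in oscoi2 plants and OsKSL4 with 4.16 and -0.37. Counted whatever their induction, 12 of the 28 were under that minimum. Of the 13 genes that met all limits on WT and oscoi1ab plants, 7 were members (53.8%) and 6 kept a larger share of the WT response. Over all 747 induced genes 11.38% were members. As the list was drawn up in part on these libraries, its share only describes it.

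**Figure D3:**
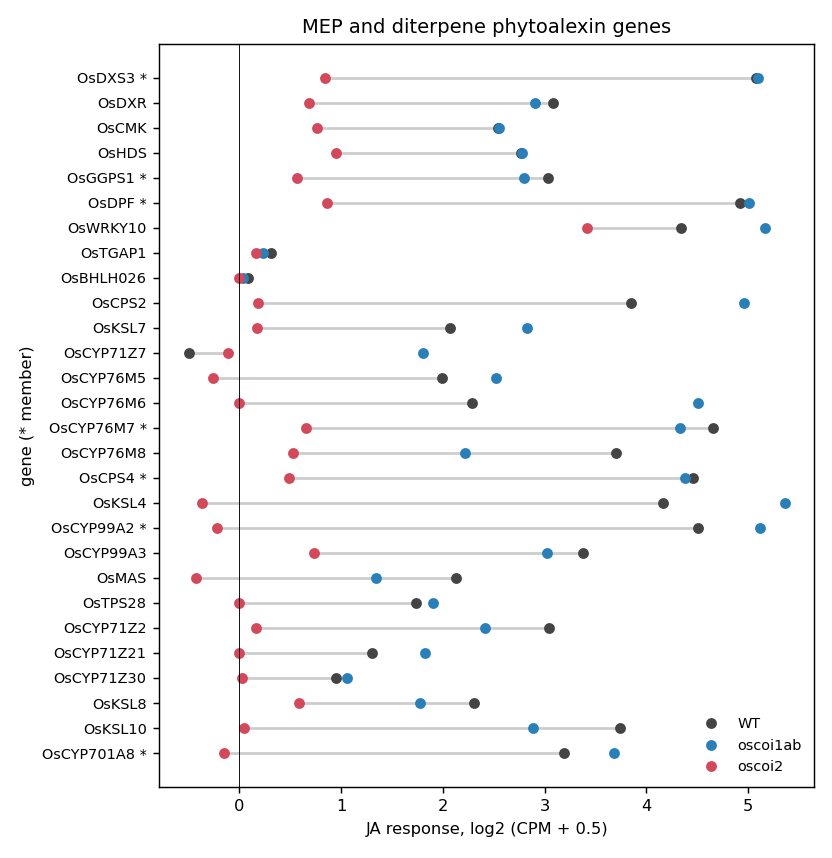
Response to JA (x axis, log2 of mean CPM + 0.5 after JA over mock) of the 28 listed MEP and diterpene phytoalexin genes (y axis) in WT (black), oscoi1ab (blue) and oscoi2 plants (red), with stars on the 7 members and grey lines joining WT and oscoi2 values. OsWRKY10 stands apart with a response of 3.42 in oscoi2 plants.

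Phenylpropanoid entry genes formed a second group. OsCHS15 is annotated as a chalcone synthase, the type of enzyme that starts flavonoid synthesis, and had the largest WT response, 5.57. It was at 0, 2.70 and 0.32 CPM in WT mock and at 39.6, 61.1 and 112.9 CPM in WT JA. The oscoi2 libraries were at 0, 1.40 and 1.17 CPM in mock and at 0.79, 1.09 and 0.40 CPM in JA. The oscoi2 JA libraries were all within the range of WT mock. Os4CL5, a 4-coumarate:CoA ligase gene, was at 57.3, 68.0 and 95.9 CPM in WT JA and at 8.15, 14.3 and 9.60 CPM in WT mock. For oscoi2 plants the levels were 13.8, 18.9 and 27.3 CPM in mock and 21.7, 15 and 18.7 CPM in JA, which overlap fully.

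LOC_Os02g41680, a phenylalanine ammonia-lyase gene that one list of the study calls OsPAL4 and another OsPAL6, encodes the step that commits phenylalanine to the pathway. It was at 25.7, 47.2 and 35.4 CPM in WT mock and at 115.0, 139.7 and 156.2 CPM in WT JA, against 40.6, 49.2 and 66.5 CPM and 60.3, 44.2 and 60.9 CPM in oscoi2 plants. Other genes for this enzyme, OsPAL3 and OsPAL7, were not members. Their responses were 2.60 and 4.14 in WT and 0.63 and 1.16 in oscoi2 plants. Cinnamate 4-hydroxylase, a P450, acts after phenylalanine ammonia-lyase, and both C4H genes of chromosome 2 were members. The more abundant OsC4H2 (LOC_Os05g25640) was not a member. It was at 261 CPM in WT mock, against 1.04 CPM for OsC4H1, with responses of 0.98 in WT and 0.16 in oscoi2 plants. OsC4H1 (LOC_Os02g26810) was at 10.5, 14.7 and 28.5 CPM in WT JA and at 2.02, 2.98 and 3.95 CPM in oscoi2 JA. Its oscoi2 mock libraries, 1.94, 3.58 and 7.72 CPM, all exceeded those of WT mock, 0.29, 1.77 and 1.06 CPM. LOC_Os02g26770, with 4 genes between it and OsC4H1, had responses of 3.86 in WT and -0.61 in oscoi2 plants. Reads shared between such close copies were not examined.

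Upstream, LOC_Os03g27230 encodes a DAHP synthase, which opens the shikimate pathway to phenylalanine. It was among the most abundant members, at 82.7, 105.5 and 98.3 CPM in WT mock and 264.9, 304.8 and 403.1 CPM in WT JA, and at 122.5, 124.9 and 154.6 CPM in oscoi2 mock and 165.9, 142.1 and 170.1 CPM in oscoi2 JA. The gene that the study's list calls OsDAHPS1, LOC_Os07g42960, was not a member. That gene was at 321 CPM in WT mock, with responses of 1.42 in WT and 0.39 in oscoi2 plants. The peroxidase genes prx51 and prx81 and the transferase genes OsPHT3 and OsTHT2 were members, with WT responses between 2.08 and 2.62.

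The list of shikimate and phenylpropanoid genes holds 34, of which 4 were members (OsPAL4, OsC4H1, Os4CL5 and OsCHS15). They were 30.8% of the 13 listed genes that met the limits on WT and oscoi1ab plants, against 11.38% over all 747 induced genes. This list too was drawn up in part on these libraries, so its counts only describe it. Among the 30 others tested, 28 were called higher after JA in WT plants, 27 in oscoi1ab plants and 6 in oscoi2 plants. Over all genes 7.48%, 7.48% and 2.99% were. The JA response was called smaller in oscoi2 than in WT plants for 12, against 1.63% of all genes. Many of these have moderate WT responses, and 19 of the 34 failed the limit of 1.5. Os4CL3, for example, had responses of 1.48 in WT and 0.29 in oscoi2 plants. The 6 genes called in oscoi2 plants included OsLDOX3, a flavonoid enzyme gene with a log2FC of 7.75 ± 0.71 SE (edgeR FDR 2.04e-06), and OsCAD8D with 3.39 ± 0.55 (edgeR FDR 4.75e-04).

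Of the 21 genes on the JA pathway list that met the limits on WT and oscoi1ab plants, 3 were members (14.3%), close to the 11.38% over all 747 induced genes. OsJAZ9 and OsJAZ13 encode JAZ repressors. OsJAZ9 was at 1.04, 1.61 and 0.28 CPM in WT mock and at 35.8, 42.3 and 51.6 CPM in WT JA. It was at 1.19, 0.87 and 1.89 CPM in oscoi2 mock and at 1.76, 2.02 and 3.55 CPM in oscoi2 JA, which overlap slightly. OsJAZ13 was at 3.23, 2.64 and 0.40 CPM in WT mock and, with little spread, at 27.1, 26.8 and 27.0 CPM in WT JA. In the oscoi2 line the values were 5.75, 2.37 and 4.94 CPM (mock) and 7.56, 3.19 and 5.17 CPM (JA), so the first library was the highest and the second the lowest under both treatments. OsCYP94B5, from the P450 family that hydroxylates the JA conjugate, was at 9.64, 13.4 and 9.39 CPM in WT JA and at 1.15, 0.88 and 0.85 CPM in oscoi2 JA. A lipoxygenase gene, LOC_Os08g39850 (OsLOX2), was at 4.20, 14.3 and 11.6 CPM in WT JA and at 0.55, 1.97 and 1.89 CPM in oscoi2 JA.

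Of the 32 listed JA pathway genes, 18 lay between the limit and 0.8 of the WT response. Out of 28 non-members tested, 18 were called higher after JA in oscoi2 plants and 23 in WT plants. Over all genes 2.99% and 7.48% were. OsJAZ11, a neighbour of OsJAZ9, had responses of 5.79 in WT and 2.65 in oscoi2 plants, and OsJAZ8 had 5.42 and 3.95. The JAZ members thus differed from these in the values by which they were chosen, a difference that was not tested.

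Transcription factor genes other than OsDPF came from several families. OsWRKY28, a WRKY gene of the defense response, was at 1.38, 4.99 and 2.88 CPM in WT mock and at 28.8, 33.6 and 61.0 CPM in WT JA. It was at 4.23, 6.09 and 7 CPM in oscoi2 mock and at 8.10, 5.39 and 8.01 CPM in oscoi2 JA. OsbHLH148, a bHLH gene linked to drought tolerance, was at 20.6, 20.1 and 14.2 CPM in WT mock and 76.3, 79.4 and 117.3 CPM in WT JA, and at 21.3, 15.6 and 25.1 CPM in oscoi2 mock and 28.4, 22.6 and 32.6 CPM in oscoi2 JA. OsMYB30 was at 12.7, 19.9 and 23.8 CPM in WT JA, and its oscoi2 libraries lay at 6.29, 3.86 and 4.08 CPM in mock and 5.79, 4.07 and 8.31 CPM in JA, all above the WT mock range of 1.11 to 3.46 CPM. For each of these genes the treatments overlapped in oscoi2 plants.

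The bZIP gene LOC_Os09g29820 and the AP2/ERF genes LOC_Os02g43940 and LOC_Os05g29810 completed the 7 members on the study's list of 76 induced transcription factor genes that it called dependent on OsCOI2. That list was itself taken from these libraries. Their WT responses were 1.60, 2.51 and 1.70, and their oscoi2 responses 0.15, 0.08 and 0.33. Of the 76, 54 failed the limit of 1.5 in WT or oscoi1ab plants, 9 others were induced but under the WT mock minimum, and 6 kept a response above the limit in oscoi2 plants. With those that also failed on induction, 14 of the 76 were under the WT mock minimum.

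**Figure D4:**
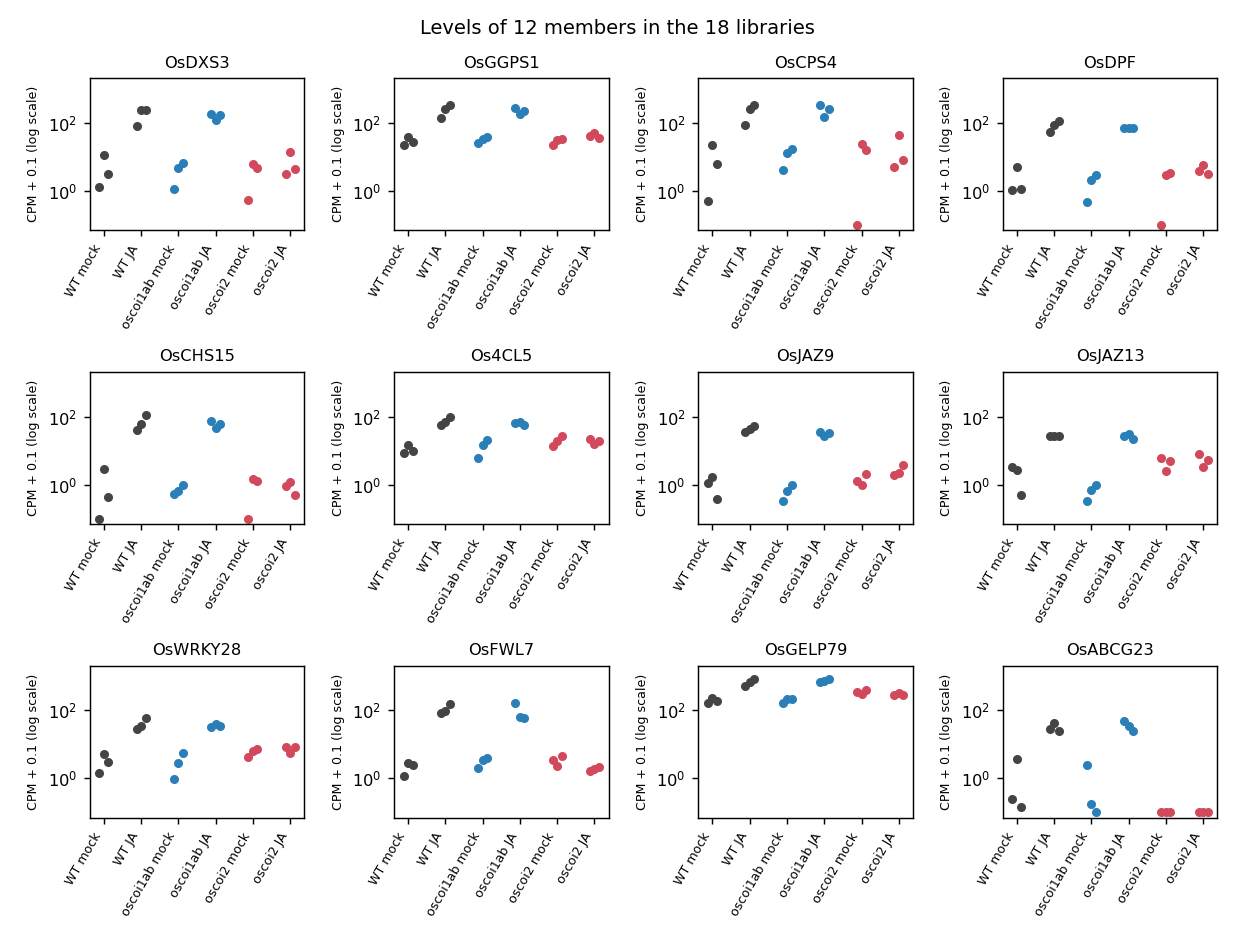
Level of 12 members in each of the 18 libraries (points, log axis, CPM + 0.1, the same range in every panel) for WT (black), oscoi1ab (blue) and oscoi2 plants (red) under mock and after JA. In each panel the JA libraries of WT and oscoi1ab plants lie above those of oscoi2 plants, and OsABCG23 is at 0 CPM in all 6 oscoi2 libraries.

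The most abundant members after JA in WT plants included OsGELP63, OsGELP79 and OsHB2. OsGELP63 and OsGELP79 belong to the GDSL family of lipases and esterases. OsGELP63 was at 119.0, 126.1 and 95.5 CPM in WT mock and at 670.6, 724.5 and 966.0 CPM in WT JA, and at 176.1, 128.2 and 172.7 CPM in oscoi2 mock and 205.8, 246.4 and 228.4 CPM in oscoi2 JA. OsGELP79 was at 169.1, 224.4 and 184.8 CPM in WT mock and at 535.1, 667.1 and 817.6 CPM in WT JA. oscoi2 mock was at 354.7, 297.2 and 389.2 CPM and oscoi2 JA at 273.8, 312.7 and 284.1 CPM. Its oscoi2 mock libraries all lay above those of WT mock, and the response there was -0.26.

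OsHB2 encodes a non-symbiotic hemoglobin. It was at 57.7, 54.7 and 60.9 CPM in WT mock and at 482.5, 291.7 and 406.4 CPM in WT JA. The oscoi2 libraries were at 112.2, 129.4 and 146.6 CPM in mock and at 239.7, 158.2 and 87.8 CPM in JA, so that the 3 JA libraries fell on both sides of the mock range. OsRALF6, a gene for a secreted peptide of the rapid alkalinization factor family, was at 224.9, 325.4 and 273.6 CPM in WT JA and at 153.1, 131.7 and 143.2 CPM in oscoi2 JA, against 126.4, 104.5 and 140.9 CPM in oscoi2 mock. OsUCL29, which encodes a plastocyanin-like protein, was at 102.4, 131.2 and 234.1 CPM in WT JA and at 22.0, 21.6 and 23.1 CPM in oscoi2 JA. The ascorbate oxidase gene LOC_Os09g20090 had a WT response of 1.72 and an oscoi2 response of 0.31.

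Among the members with a large response was also LOC_Os02g45780, a RING-type E3 ligase gene that restrains cuticular wax formation, at 29.9, 39.1 and 54.9 CPM in WT JA and 4.30, 3.38 and 4.09 CPM in oscoi2 JA. Its WT mock libraries were at 1.29, 1.97 and 1.29 CPM, below every oscoi2 JA library.

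The lowest oscoi2 response was that of OsFWL7, a gene for a cysteine-rich protein of the FWL family, at -0.74. It was at 1.08, 2.65 and 2.39 CPM in WT mock and at 84.6, 93.3 and 157.2 CPM in WT JA. For oscoi2 plants the levels were 3.46, 2.24 and 4.30 CPM in mock and 1.5, 1.82 and 2.05 CPM in JA, the only member whose oscoi2 JA libraries all lay below the mock ones. The drop from the WT to the oscoi2 response, 6.21, was the largest of the 85. The adjacent LOC_Os03g61490, which carries a similar annotation, was at 25.9, 28.9 and 46.5 CPM in WT JA and at 2.36, 2.15 and 1.91 CPM in oscoi2 JA, with responses of 3.05 and -0.55. It was the only pair of members next to each other in MSU locus order. LOC_Os02g22160, a gene of a family with unknown function, had responses of 2.07 and -0.50.

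OsABCG23, which encodes an ABC transporter of the white-brown complex family, was at 0 in all 6 oscoi2 libraries. It was at 0.15, 3.66 and 0.04 CPM in WT mock and at 28.3, 43.6 and 25.2 CPM in WT JA, and at 48.4, 35.4 and 25 CPM in oscoi1ab JA. With a floor of 3 read pairs per library (0.107 CPM), the mean after JA in oscoi2 plants was exceeded at least 301-fold in WT plants, and in oscoi1ab plants it was at least 338-fold higher. Its oscoi2 response of 0.00 reflects only the added 0.5 CPM. Other transporter genes among the members included those for amino acids, OsATL12, OsATL15 and OsAAP8. OsATL12 was at 76.9, 50.6 and 71.5 CPM in WT JA, at 97.9, 92.0 and 86.3 CPM in oscoi1ab JA and at 11.2, 11.4 and 11 CPM in oscoi2 JA.

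Under mock, members tended to have higher means in oscoi2 than in WT plants, and the rule favours this order since the oscoi2 mock level is the base of the oscoi2 response. The mean was higher for 70 of the 85, with a median log2 ratio of 0.37, and the libraries did not overlap for 21, where 12.4% of all genes were so separated. On the TMM scale the median log2FC was 0.49, but 0.81 without the second WT mock library and 0.32 without the third oscoi2 mock library. On the CPM scale the median was -0.49 in the 120 genes with a retained response, which the rule drives the other way. By edgeR 0 members were called between oscoi2 and WT mock, against 0.375% of all genes. At an unadjusted p under 0.05 there were 28, against 22.7%, and 18 without the third oscoi2 mock library. DESeq2 called 3, against 1.09%. These were OsAAP8 and OsWAK21, higher in oscoi2 plants, and OsABCG23, lower. OsAAP8 was at 0.75, 0.77 and 0.52 CPM in WT mock and at 3.47, 1.52 and 1.63 CPM in oscoi2 mock. OsWAK21, a gene for a wall-associated receptor-like kinase, was at 1.80, 5.66 and 3.84 CPM in WT mock and at 7.22, 11.3 and 14.2 CPM in oscoi2 mock. Between oscoi1ab and WT mock 0 members were called, against 0.162% of all genes. At an unadjusted p under 0.05 there were 4 (4 to 7 without single libraries), against 4.43%, and DESeq2 called 0, against 0.496%.

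The only values that the rule had not used were those of libraries left out of it. In each split the rule was applied to 2 of the 3 replicate numbers. The responses of the genes it then chose were read in the 6 libraries of the third. The median oscoi2 response was then 0.72 for the 102 genes chosen without number 1, 0.30 for the 88 without number 2 and -0.11 for the 61 without number 3. The medians in WT plants were 2.53, 1.84 and 2.79, and in oscoi1ab plants 3.21, 1.98 and 1.76. The WT response exceeded the oscoi2 response for 99 of the 102 genes, 86 of the 88 and all 61. The limit of 0.2 was less often met again, by 29, 47 and 53 genes, and the whole rule by 14, 27 and 22. Of the genes chosen, 62, 66 and 47 were among the 85. In each set of left-out libraries oscoi2 plants had the lowest median, while most of the chosen genes did not meet every limit again. Genes chosen in the same way for a retained response had oscoi2 medians of 2.24, 1.93 and 1.80. Their medians were 2.48, 2.11 and 2.25 in WT and 2.70, 2.33 and 2.31 in oscoi1ab plants. There too oscoi2 plants were lowest, so that order alone was not particular to the genes chosen by the full rule.

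**Figure D5:**
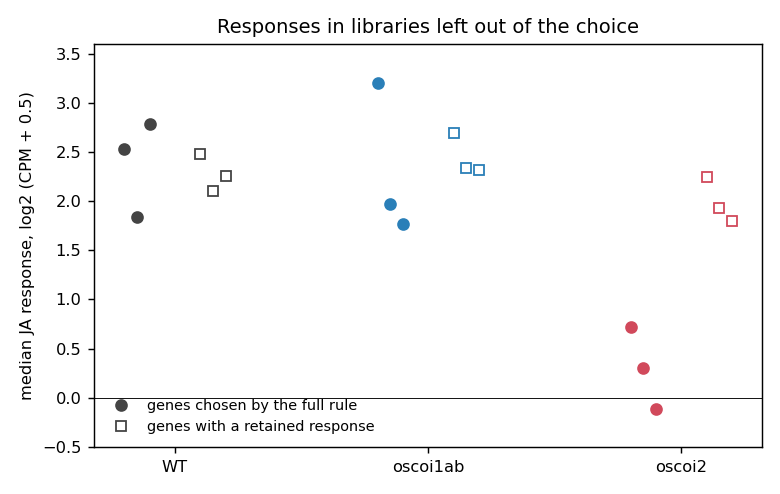
Median response to JA (y axis, log2 of CPM + 0.5 after JA over mock) in the libraries left out of the choice, for genes chosen by the full rule (filled circles) and for genes chosen for a retained response (open squares), 3 splits each, in WT, oscoi1ab and oscoi2 plants. The filled oscoi2 points lie between -0.11 and 0.72, below every other point.

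A description was found for 84 of the members. By its words, 9 encode transcription factors or JAZ proteins (10.7%, against 6.03% of the retained and 8.29% of all 736 annotated induced genes), 7 transporters (8.33%, against 6.03% and 5.71%) and 6 P450s (7.14%, against 2.59% and 2.45%). The P450s were OsCYP99A2, OsCYP76M7, OsCYP701A8, OsCYP94B5 and both C4H genes. Against the induced genes, shares were lower for protein kinases (4.76% against 6.93%), oxidoreductases (8.33% against 9.92%) and glycosyl hydrolases or cell wall proteins (2.38% against 3.8%). They were higher for acyl or methyl transferases (4.76% against 4.21%), lipases or lipid enzymes (5.95% against 2.85%) and F-box or ubiquitin ligase proteins (2.38% against 0.951%). No member was annotated as a proteinase inhibitor, a class with 7 of 116 retained and 19 of 736 induced genes. None was a glycosyltransferase (1 of 116 and 19 of 736) or glutathione S-transferase (3 of 116 and 7 of 736). With shares this small, little can be read from an absence among 84 genes. Unknown or hypothetical proteins made up 22.6%, against 22.3% of the induced genes. Chromosome 2 carried 19 members, and chromosomes 1 and 3 carried 11 each.

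Both MSU and RAP-DB identifiers were given for 77 members, only MSU for 2 and only RAP-DB for 6. Some of the last lie beside induced genes. Os06g0157125 is next to OsGELP79, Os02g0781966 next to OsSTA81 and Os02g0114300 next to the acyltransferase gene LOC_Os02g02340, all members, while Os02g0603900 adjoins OsHDS. Os06g0157125 was at 36.4, 62.6 and 70.3 CPM in WT JA and at 24.6, 38.7 and 20.3 CPM in oscoi2 JA, which overlap. Whether counting used the strand is not given in the sources used here, so reads of such neighbours cannot be told apart.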

How the data were processed

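RNA of crown root tips was sequenced as 150-bp paired reads, with 18 libraries in 6 groups of 3. The deposited values are estimated counts per gene. According to the methods, the authors trimmed reads with CutAdapt, mapped them with HiSat2 to MSU7 and RAP-DB annotations, assembled them with StringTie, and merged both annotations with an in-house script. The expected counts as deposited by the authors are whole numbers without normalization. A read pair appears to give several counts, taken here as 3.7, so precision is lower than the totals imply, and the floor was set at 3 read pairs. A sample's group and replicate came from its title. The members and the gene lists were chosen with earlier results of these data known. Names and descriptions came from the study's tables.

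Genes with a count sum of at least 180 were fitted in 1 model of 6 groups with edgeR 4.0.16 in R 4.3.3 (TMM, quasi-likelihood), with genes called where the adjusted p (Benjamini-Hochberg FDR) was below 0.01 and the log2FC 1 or more. DESeq2 1.42.0 and limma 3.58.1 served as alternatives, and the rule and plots were run in Python 3.11.15 (pandas 2.3.3, numpy 2.4.6, matplotlib 3.10.9). Genes were named by rule: members on a list, the 10 most abundant after JA and the 10 of largest WT response, the 5 of lowest oscoi2 response and of largest drop, and those at the limits. Others, such as OsAAP8, OsWAK21, OsATL12 and Os06g0157125, were chosen after their values were seen. Same-numbered libraries deviated together between WT mock and WT JA (r = 0.405, 0.446 and 0.345 over 17643 genes of at least 5 CPM), between oscoi2 mock and JA (0.256, 0.553 and 0.124) and between WT and oscoi1ab mock (0.525, 0.371 and 0.287), but not in every number elsewhere. The replicate block was run as an alternative. Promoter motifs and protein sequences were not analysed here.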

Additional observations from a re-analysis of the deposited data

Results flagged for a closer look

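The JA response differed between lines for 48 members in the interaction contrast of oscoi2 against WT plants (edgeR, FDR under 0.01 and log2FC of at least 1), all with the smaller response in oscoi2 plants, where 1.63% of all genes tested were called in that direction. The rule had chosen the members for this difference in the same libraries, so the count describes the choice.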

How the results depend on the processing

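The number of members depended mainly on where the limits were set. It was 179 with a response limit of 1 and 44 with a limit of 2, and 41 with an oscoi2 limit of 0.1 and 242 with 0.4 of the WT response. Without single libraries it ranged from 64 to 111, and 24 of the 85 were members in all 18 omissions. With TMM-scaled sizes 108 genes met the rule and with DESeq2's size factors 113, and 70 of the 85 were among them in both cases. Group medians in place of means gave 76 genes, with 58 of the 85.

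The counts of members called ranged, without single libraries, from 74 to 82 for JA in WT plants, 72 to 80 for JA in oscoi1ab plants, 37 to 63 for oscoi2 against WT plants after JA and 36 to 54 for the interaction of oscoi2 and WT plants. For oscoi2 against WT mock the count was 0 to 2, with 3 at an FDR under 0.05, 3 by DESeq2 and 1 with only the groups compared. No member was called for JA in oscoi2 plants under any alternative. The replicate block gave 83, 82, 0, 64 and 54 members for JA in WT, oscoi1ab and oscoi2 plants, for oscoi2 against WT plants after JA and for the interaction, and moved no count by over 1.5 times. Signs and calls were compared for 33 of the members named by rule, and those named for lying at a limit were not among them. For the 33, no log2FC changed sign under any alternative for JA in WT plants, JA in oscoi1ab plants, the interaction of oscoi2 and WT plants, and oscoi2 against WT plants after JA. In the first 3 of these a call was lost in 10, 13 and 78 of 924 gene-by-alternative cases and gained in 18, 39 and 39. For JA in oscoi2 plants the sign changed in 22 cases (8 genes) and for oscoi2 against WT mock in 29 (11 genes), and in the 3 contrasts of oscoi1ab and WT plants it changed in 42 to 51, none of them called. Medians in left-out libraries moved by less than their spread over the 3 splits with TMM scaling or 1 CPM added. The promoter motif shares were not run. Library depth limits the low members most. Those near 0.5 CPM under mock rest on few read pairs, and their responses depend on the 0.5 CPM added.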
